A study of Danio rerio with 20 samples.

Results

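The comparison described here sets zebrafish embryos injected with morpholinos against both TUT4 and TUT7 (TUT47MO) beside embryos injected with a control morpholino (ConMO) at the earliest hours sampled, 2 and 3 hours post-fertilization (hpf). Its 6 libraries, of 20 in the series, form 3 matched pairs: TUT47MO and ConMO of set rs1a at 2 hpf, of rs1b at 3 hpf and of rs2 at 3 hpf. They were taken by morpholino, set and hour as labelled, and were fitted alone, without the later libraries. All embryos were wild-type AB, injected at the 1-cell stage, so both groups share the injection and differ in the morpholinos. A morpholino blocks either the translation or the splicing of its target; the labels do not say which applies here, and with translation blocked the mRNA level of a target is no check of the knockdown. Each library held the pooled RNA of whole embryos, the series text calls the 3 sets independent, and how many embryos or clutches stand behind a library is not stated. The p-values therefore measure the spread between these libraries. In RNA of whole embryos, fewer cells of a type and less RNA per cell cannot be told apart.

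TUT4 and TUT7 are terminal uridylyl transferases, enzymes that add uridines to the 3′ ends of RNAs, among them mRNAs whose poly(A) tail has become short; oligo(U)-tailed RNAs are degraded by the decapping and exosome machineries. A fertilized fish egg begins with mRNAs and proteins laid down by the mother. Its own genome is switched on a few hours later, and many maternal mRNAs are removed around that time. At 2 hpf the embryo still lives almost wholly on maternal RNA, while at 3 hpf the first zygotic genes are beginning to be transcribed.

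The values in rs1b are estimated counts, and those in rs1a and rs2 are estimated counts multiplied by a factor for each library, which was removed. The 6 libraries then held 16171447 to 32650950 reads. Levels are given as CPM, counts scaled to library size by TMM over the 6 libraries, and changes as log2 of TUT47MO over ConMO after adding 1 CPM. Many first zygotic genes were low at these hours. Of 76 genes listed as first zygotic transcripts, 43 were too low to be tested, and 42 of these stayed under 1 CPM in each of the 6 libraries. The 2 most abundant of the list were high in each library. btg2 had 313, 317.7 and 406.2 CPM in TUT47MO of rs1a, rs1b and rs2, against 354.1, 350.5 and 421.9 CPM in ConMO. dusp1 had 307.4, 223.9 and 364.2 CPM in TUT47MO, against 304.1, 214 and 339.3 CPM in ConMO. Of 29 genes listed for later organs and tissues, 23 were too low to be tested, and each of these stayed under 1 CPM. Many entries have a clone-type name in place of a gene symbol, and a pair of these that share 1 clone name is described here. An alternative scaling left out entries of that clone name along with the mitochondrially encoded genes. The pair took 11.7% of reads in TUT47MO and 10.9% in ConMO of rs1a, 1.17% and 1.32% in rs1b, and 6.36% and 5.62% in rs2.

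The mRNAs of the 2 targeted enzymes were present in every library at similar levels. TUT4, listed as zcchc11, had 128.5, 151.6 and 192.1 CPM in TUT47MO embryos of rs1a, rs1b and rs2, against 132.8, 158.6 and 186.1 CPM in ConMO embryos. TUT7, listed as ZCCHC6, had 214.9, 225.2 and 254.3 CPM in TUT47MO embryos, against 216.6, 237.2 and 232.3 CPM in ConMO embryos. The log2 changes were -0.02 ± 0.05 (SE) for zcchc11 and 0.01 ± 0.05 for ZCCHC6, and neither passed the test (limma, adjusted p = 0.949 and 0.972). Each gene was higher in TUT47MO in rs2 and lower in the other 2 sets.

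Across 15842 genes tested, 1 entry was higher and 0 were lower in TUT47MO embryos (limma with the set as a block, Benjamini-Hochberg adjusted p under 0.05), which is 0.00631% called in either direction. At an unadjusted p under 0.05 the same fit held 1026 entries (6.48%), 643 higher (4.06%) and 383 lower (2.42%), edgeR's quasi-likelihood test also called 1 entry higher and 0 lower, and DESeq2 called 12 higher and 1 lower. The pairs themselves were tight. The median SE of a log2 change was 0.085, and the 95% confidence interval lay within 2-fold in either direction for 15808 genes (99.8%) and within 1.5-fold for 15178 genes (95.8%). These bounds hold for CPM + 1. For the 2778 genes under 2 CPM the added 1 CPM compresses the change, so their share within 2-fold says little. Among 4114 genes of 50 to 200 CPM, where it matters little, the share within 2-fold was 99.9%.

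**Figure D1:**
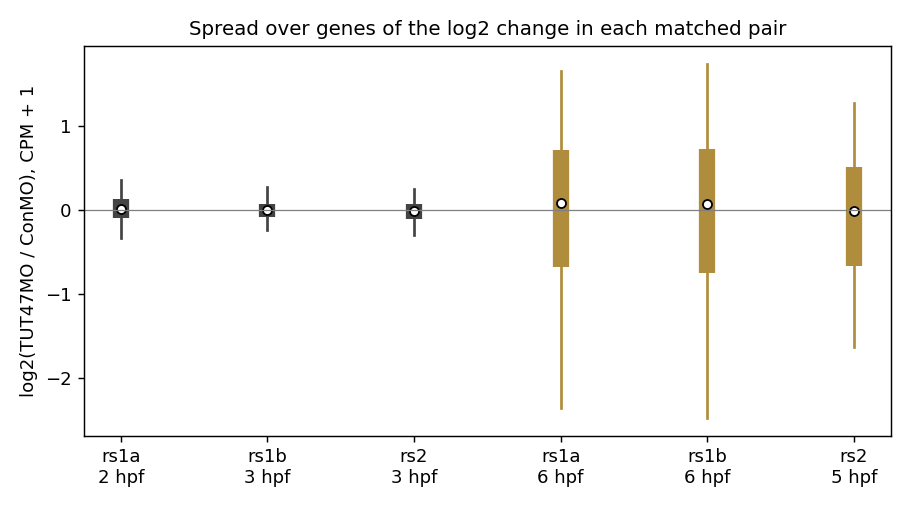
Spread over 18075 genes of the log2 change (TUT47MO over ConMO, CPM + 1) in each matched pair; thin lines run from the 5th to the 95th percentile, thick bars from the 25th to the 75th, and circles mark medians. The early pairs at 2 and 3 hpf (grey) span a narrow band around 0, and the pairs at 5 and 6 hpf (ochre) a wide one.

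The distance to the later pairs is shown by the plot of the spread in each pair. After adding 1 CPM, a 2-fold or larger difference was measured for 0.238% of 18075 genes in the 2 hpf pair (rs1a), and for 0.0553% (rs1b) and 0.116% (rs2) in the 3 hpf pairs. In the later pairs of the same sets the shares were 35.7% (rs1a, 6 hpf), 37.3% (rs1b, 6 hpf) and 25.6% (rs2, 5 hpf). The late effect minus the early effect, tested in 1 model of 12 libraries with the 6 pairs as a block, was called for 8960 of 18075 genes (49.6%): 4492 higher and 4468 lower. Across genes of at least 20 CPM, the log2 changes of the early pairs were weakly related to each other (Pearson's r = 0.205 for rs1a with rs1b, 0.143 for rs1b with rs2 and 0.028 for rs1a with rs2, over 7990 genes, which are not independent replicates).

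The entry called in the 3 pairs was a 5.8S rRNA (5_8S_rRNA, ENSDARG00000081218), the small rRNA of the large ribosomal subunit that is cut from the same precursor as the 18S and 28S rRNAs. It had 920.7, 286.8 and 532.2 CPM in TUT47MO embryos of rs1a, rs1b and rs2, against 354.6, 95.86 and 297.5 CPM in ConMO embryos. The TUT47MO library was the higher of each pair, although the 2 groups overlap, since rs1b TUT47MO lay below rs1a and rs2 ConMO. The log2 changes were 1.37, 1.57 and 0.84 in the 3 pairs, with a fitted value of 1.26 ± 0.11 (SE; limma, adjusted p = 0.0211). The call was lost without rs1b (adjusted p = 0.0556), with scaling that left out mitochondrially encoded genes and entries named like that clone pair (0.0508) and in 5 other settings, with the log2 change above 1 in each.

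The same RNA also varied widely outside this comparison. The libraries were depleted of rRNA, and scaled over all 20 libraries the 5.8S entry ranged from 72.4 CPM at 3 hpf (rs1b) to 1111 CPM at 4 hpf (rs1a) among the ConMO libraries alone. At 2 hpf in rs1a the embryos injected against TUT4 alone had 998 CPM and those injected against TUT7 alone 1260 CPM, beside 694.5 CPM in TUT47MO and 262 CPM in ConMO; these 3 knockdowns share that ConMO library. Later in rs1a the TUT47MO library was the lower, with 527.7 CPM against 1111 CPM in ConMO at 4 hpf. At 6 hpf it had 419.1 CPM against 972 CPM. It was the higher in rs1b at 6 hpf (401.6 against 199.2 CPM) and in rs2 at 5 hpf (574.6 against 323.4 CPM). The part of rRNA depletion in these values was not tested. The entry is 1 of 10 with this name and held nearly all of their reads. Over the 6 early libraries the 10 summed to 921, 286.8 and 532.5 CPM in TUT47MO embryos of rs1a, rs1b and rs2. In ConMO embryos they summed to 354.6, 95.86 and 297.7 CPM.

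Other small structured RNAs lay on the same side in each pair. RNase P RNA, the catalytic RNA that trims the 5′ ends of tRNA precursors, was measured on 3 entries that summed to 252, 832.8 and 790.2 CPM in TUT47MO embryos of rs1a, rs1b and rs2, against 167.7, 727.3 and 676.2 CPM in ConMO embryos. RNase MRP RNA, a relative that acts in rRNA maturation, had 65.34, 211.4 and 252.8 CPM in TUT47MO embryos, against 38.72, 176.9 and 182.2 CPM in ConMO embryos. SNORA73, a small nucleolar RNA of rRNA processing on 4 entries, summed to 77.49, 131.9 and 152.4 CPM in TUT47MO embryos, against 44.96, 112.1 and 113.2 CPM in ConMO embryos. For each of these families the rs1a pair showed the largest log2 change (0.58, 0.74 and 0.77) and rs1b the smallest (0.20, 0.26 and 0.23). Of the 3 RNase P entries, 1 was named for its small p, with 128.3, 334.3 and 376.9 CPM in TUT47MO embryos of rs1a, rs1b and rs2. This entry had a log2 change of 0.40 ± 0.06 (SE) and did not pass the test over 3 pairs (limma, adjusted p = 0.307), although DESeq2 called it (adjusted p = 0.000422).

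**Figure D2:**
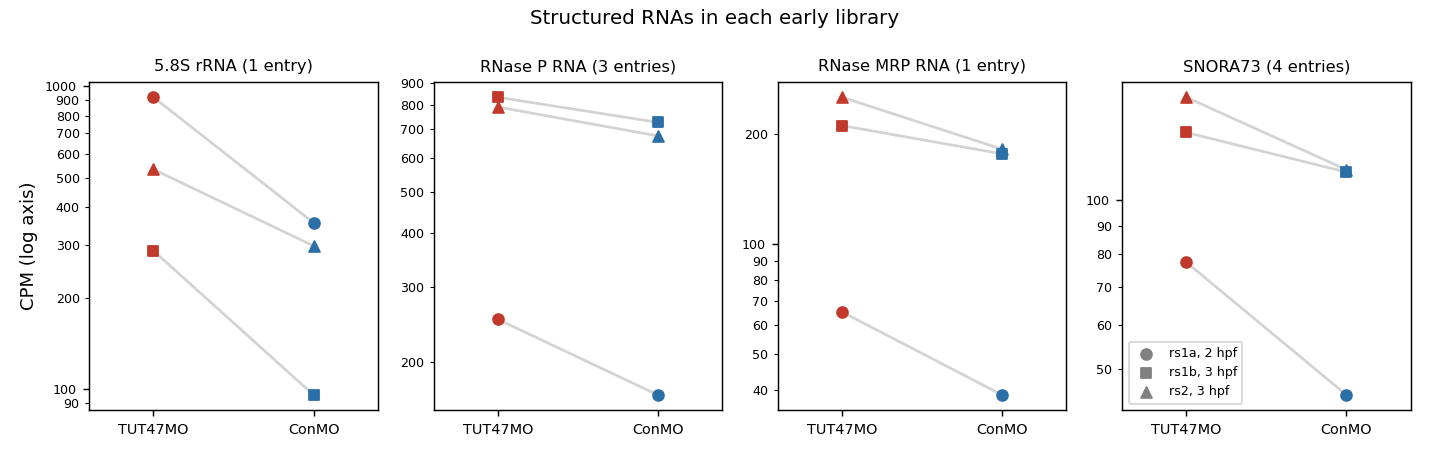
Levels of 4 small structured RNAs (CPM, log axes with separate ranges) in each TUT47MO library (red) and its matched ConMO library (blue), joined by a grey line per set. Each of the 12 lines slopes down from TUT47MO to ConMO, and the rs1a libraries hold the least RNase P, RNase MRP and SNORA73.

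The signal recognition particle RNA, a structured RNA that guides ribosomes to the endoplasmic reticulum, differed less evenly. Summed over 81 entries it had 27030, 40250 and 50340 CPM in TUT47MO embryos, against 20050, 39930 and 43360 CPM in ConMO embryos, or log2 changes of 0.43, 0.01 and 0.21. Of 2410 entries listed as small structured RNAs, a list drawn up after the values had been seen, 119 could be tested: 1 was called, the 5.8S entry, and 60 (50.4%) were higher in all 3 pairs, beside 2289 of 15842 genes (14.4%). Their median log2 change was 0.26, beside -0.01 over all genes tested. Many of these entries are near-identical copies that share reads, so they are not separate measurements, and most members of the list were too low to be tested.

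No other gene passed the test over the 3 pairs, and the genes nearest to it are given as values. ano10b, of the anoctamin family of membrane proteins, had 23.84, 23.07 and 21.36 CPM in TUT47MO embryos of rs1a, rs1b and rs2, against 17.49, 14.19 and 10.15 CPM in ConMO embryos. In this gene, named for its small p, all TUT47MO libraries lay above all ConMO libraries. How many of all genes separate in this way was not counted. The log2 change of ano10b was 0.70 ± 0.11 (SE, limma, adjusted p = 0.307). gbgt1l1, related to a glycosyltransferase of globoside synthesis, had 57.48, 42.78 and 30.02 CPM in TUT47MO embryos, against 45.93, 29.9 and 20.36 CPM in ConMO embryos (log2 change 0.45 ± 0.07). Being the higher of each pair was asked for by the naming rule, and the groups overlapped across sets. ap3s2, a subunit of the AP-3 vesicle adaptor, had 24.39, 16.81 and 13.81 CPM in TUT47MO embryos, against 16.3, 11.32 and 9.552 CPM in ConMO embryos (0.53 ± 0.08).

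On the lower side, sqstm1, the autophagy receptor p62, had 18.43, 27.55 and 34.93 CPM in TUT47MO embryos, against 25.6, 37.21 and 43.2 CPM in ConMO embryos (log2 change -0.39 ± 0.07 SE; limma, adjusted p = 0.307). klhl13, a substrate adaptor of a cullin ubiquitin ligase, had 25.32, 36.14 and 47.99 CPM in TUT47MO embryos, against 36.71, 41.92 and 62.37 CPM in ConMO embryos (-0.37 ± 0.07, adjusted p = 0.417). prkacbb, a catalytic subunit of protein kinase A, had 98.67, 101 and 100.8 CPM in TUT47MO embryos, against 119.2, 113.3 and 116 CPM in ConMO embryos (-0.21 ± 0.05, adjusted p = 0.471), with no overlap between the groups. Both klhl13 and prkacbb have a second entry of the same name, with log2 changes of 0.13 ± 0.07 and 0.09 ± 0.05, so the split of reads between entries is uncertain. rerea and surf2 had log2 changes of -0.44 ± 0.09 and -0.41 ± 0.08, and both had an adjusted p of 0.448. The rule that named these 5 genes asked for a small p and a lower TUT47MO level in all 3 pairs. A lower level in all 3 pairs held for 2280 of the 15842 genes (14.4%). How many of all genes show no overlap between the groups was not counted.

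Maternal mRNAs that disappear early were then followed in the pairs at 3 hpf. In ConMO embryos of rs1a, 172 genes had at least 5 CPM at 2 hpf and dropped by 1 or more on the log2 scale by 4 hpf, and these are called early-cleared here. The 3 hpf pairs of rs1b and rs2 share no library with that choice. There, 142 of the 172 genes were higher in TUT47MO in both pairs (82.6%), beside 4388 of all 20014 genes (21.9%), and 1 was lower in both. Their median log2 change was 0.21 in rs1b, with 95.9% of the genes higher, and 0.14 in rs2, with 86% higher.

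In CPM scaled over the 14 TUT47MO and ConMO libraries, the median of these 172 mRNAs at 3 hpf was 24.2 in TUT47MO and 19.8 in ConMO embryos of rs1b, and 18.9 in TUT47MO and 16 in ConMO embryos of rs2. The rs1a libraries of ConMO chose the genes and are given as a description: 28.4 in TUT47MO and 24.7 in ConMO at 2 hpf, and 14.9 in TUT47MO and 9.63 in ConMO at 4 hpf. By 5 to 6 hpf the median levels lay close together, at 7.31 in TUT47MO and 7.14 in ConMO of rs1a, 7.31 and 7.75 of rs1b, and 7.62 and 6.69 of rs2. Gene by gene, the median log2 change was then -0.03 in rs1b at 6 hpf, with 48.3% of the genes higher. In rs2 at 5 hpf it was 0.30, with 61% higher, so close median levels do not mean that single genes were alike. Set against 9256 genes whose level stayed within 0.5 on the log2 scale from 2 to 4 hpf, the median change of the early-cleared mRNAs was higher by 0.23 in rs1b and 0.16 in rs2 (0.20 ± 0.05, SD, n = 2). With 2 pairs the smallest p of a two-sided exact sign-flip permutation test is 0.5, so the difference cannot reach the threshold by that test. How closely the embryos of a pair matched in stage beyond the labelled hour was not tested.

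**Figure D3:**
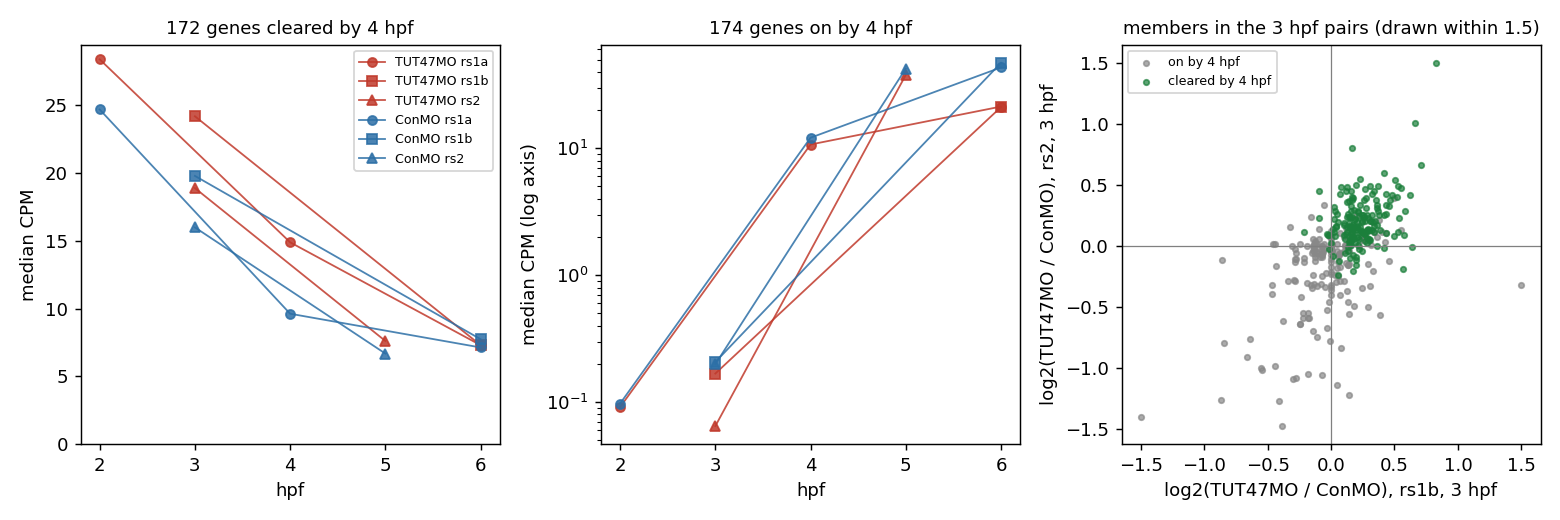
Left and middle, median CPM by hour (hpf) of 172 genes cleared and 174 genes switched on between 2 and 4 hpf in ConMO embryos of rs1a, in TUT47MO (red) and ConMO (blue) libraries of each set; the middle axis is logarithmic, and the rs1a ConMO points at 2 and 4 hpf chose the genes. Right, log2 change (TUT47MO over ConMO) of each member in the 3 hpf pairs, drawn at 1.5 where it is beyond; 142 of the 172 cleared genes (green) lie above 0 in both.

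Single members give the levels behind these counts. gbgt1l1 dropped by 2.42 on the log2 scale from 2 to 4 hpf in rs1a ConMO, and at 3 hpf it had the 42.78 and 30.02 CPM in TUT47MO against 29.9 and 20.36 CPM in ConMO given above. pef1, a calcium-binding protein with EF hands, had 26.02 CPM (rs1b) and 22.65 CPM (rs2) in TUT47MO, against 16.54 and 16.68 CPM in ConMO. atg12, a ubiquitin-like protein of autophagy, had 18.39 and 14.85 CPM in TUT47MO, against 13.36 and 10.81 CPM in ConMO. For pef1 and atg12, picked after their values were seen, the 2 values of TUT47MO lay above those of ConMO, also across sets.

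MZT1, a small partner of γ-tubulin in spindle assembly, had 9.061 and 6.886 CPM in TUT47MO embryos of rs1b and rs2, against 5.166 and 3.991 CPM in ConMO embryos. lamtor3, a scaffold of lysosomal signalling, had 25.71 and 14.85 CPM in TUT47MO, against 18.42 and 11.63 CPM in ConMO. mt2, a metallothionein that binds zinc and copper, had 263.6 and 309.2 CPM in TUT47MO, against 190.9 and 238.8 CPM in ConMO, while at 2 hpf it was the lower in TUT47MO, with 314.8 CPM against 359.8 CPM in ConMO. Smaller differences stood at classical oocyte mRNAs of the class. mos, the kinase that holds the egg in metaphase, had 81.23 and 151.4 CPM in TUT47MO, against 73.74 and 135.5 CPM in ConMO, but 111.8 CPM in TUT47MO against 118.6 CPM in ConMO at 2 hpf. org, the oogenesis-related gene, had 349.6 and 346.4 CPM in TUT47MO, against 316.9 and 303.7 CPM in ConMO.

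The steepest fall of all in the class, that of adob, rests on an entry that shares its name with another. The 2 entries had log2 changes of opposite sign at 3 hpf, 1 of them standing in each class, and their sum was 60.39, 60 and 58.24 CPM in TUT47MO embryos of rs1a, rs1b and rs2, against 65.51, 61.16 and 54.8 CPM in ConMO embryos. The split of reads between the entries is therefore uncertain, and the summed gene differed by -0.02 ± 0.10 on the log2 scale (SD, n = 3).

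The genes that ConMO embryos of rs1a switched on by 4 hpf were near the limit of detection at 3 hpf. This class holds 174 genes under 1 CPM at 2 hpf and at 5 CPM or more at 4 hpf. In the 3 hpf pairs 70 of them were lower in TUT47MO in both (40.2%), beside 3148 of the 9256 stable genes (34%) and 5314 of all 20014 genes (26.6%), and 24 were higher in both (13.8%), beside 19.2% of the stable genes. Their median log2 change was -0.02 in rs1b and -0.09 in rs2, at median levels of 0.168 CPM in TUT47MO and 0.207 CPM in ConMO of rs1b, and 0.0648 CPM in TUT47MO and 0.199 CPM in ConMO of rs2. These levels are a few reads per gene, and the added 1 CPM compresses them. Against the stable genes the difference was 0.00 in rs1b and -0.07 in rs2, and on average it was -0.03 with 1 CPM added, -0.26 with 0.1 CPM and 0.005 with 5 CPM.

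The 2 pairs at 3 hpf were also fitted without rs1a, a setting planned as an alternative that leaves 1 residual degree of freedom. Since rs1a is the only pair at 2 hpf, hour and set cannot be told apart. In the fit without rs1a 76 of 16196 genes were called higher (0.469%) and 36 lower (0.222%), 0.692% in either direction (limma, adjusted p under 0.05), against 1 and 0 in the 3 pairs. Leaving out rs1b instead gave 0 higher and 0 lower, and leaving out rs2 gave 1 higher and 0 lower. Of the 76, 18 belong to the genes cleared by 4 hpf (23.7% of the calls and 10.5% of the class), and of the 36, 11 belong to the genes on by 4 hpf (30.6% of the calls and 6.32% of the class). Only 64 of the 174 genes on by 4 hpf passed the low-value filter, which their ConMO level alone can satisfy, while all 172 cleared genes did. None of the 36 belongs to the cleared class, and 1 of the 76 belongs to the genes on by 4 hpf. The 18 and the 11 each include an adob entry, whose share of reads is uncertain as described above. The calls rest on the spread borrowed from all genes, since each gene has 2 pairs. Some calls rest on 1 pair, with the other near 0 or of opposite sign. glipr2l, called lower, had 96.88 and 0.2904 CPM in TUT47MO of rs1b and rs2, against 91.58 and 6.944 CPM in ConMO. A signal recognition particle RNA entry called higher had 26.71 and 0.06098 CPM in TUT47MO, against 4.634 and 0.2859 CPM in ConMO.

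Among the genes called higher at 3 hpf, ano10b had a log2 change of 0.83 ± 0.11 (SE; limma, adjusted p = 3.94e-06), gbgt1l1 of 0.52 ± 0.08, pef1 of 0.52 ± 0.10 and mt2 of 0.42 ± 0.06. atpif1a, the inhibitor of the mitochondrial ATP synthase, had 44.99 and 103.7 CPM in TUT47MO embryos of rs1b and rs2, against 32.93 and 54.3 CPM in ConMO embryos (0.68 ± 0.08). At 2 hpf it had 51.31 CPM in TUT47MO and 39.47 CPM in ConMO. stil, a centriole assembly factor, had 125.4 and 320.6 CPM in TUT47MO at 3 hpf, against 99.15 and 247 CPM in ConMO (0.36 ± 0.06), and 223.6 CPM in TUT47MO against 216 CPM in ConMO at 2 hpf.

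The calls at 3 hpf include 3 egg coat genes, which were made a list after values were seen. They encode zona pellucida proteins, which the oocyte secretes into its envelope. zp3.2 had 639, 627.5 and 543.4 CPM in TUT47MO embryos of rs1a, rs1b and rs2, against 539.6, 532.1 and 383.7 CPM in ConMO embryos, with the TUT47MO library the higher of each pair. Its log2 change was 0.37 ± 0.06 at 3 hpf (SE; limma, adjusted p = 0.000838), and 0.33 ± 0.06 over the 3 pairs, where it was not called (adjusted p = 0.325). zp3b had 229.6, 264.6 and 132.8 CPM in TUT47MO, against 181.7, 236.5 and 89.96 CPM in ConMO, and zp3a.1 had 57.2, 101.7 and 77.07 CPM in TUT47MO, against 52.72, 81.71 and 54.39 CPM in ConMO. These 3 were called at 3 hpf and the remaining 19 of the 22 genes were not. Over the 3 pairs 10 of 22 were higher in each pair (45.5%) and 2 were lower in each, with a median log2 change of 0.07; members are close relatives, and reads may be shared among them.

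First zygotic genes called lower at 3 hpf are given as values, and others of the list went the other way. Of 74 listed genes kept over the 14 TUT47MO and ConMO libraries, 26 were lower in both 3 hpf pairs and 11 higher in both. Among all genes 26.6% were lower and 21.9% higher in both, and among the stable genes 34% and 19.2%. Of 76 listed 37 passed the low-value filter, which a gene can pass through the ConMO libraries alone, so the count of 6 lower calls is partly fixed by the filter and nothing is read from it. vox, a homeobox repressor of dorsal fates, had 1.686 and 0.6222 CPM in TUT47MO embryos of rs1b and rs2, against 3.809 and 1.822 CPM in ConMO embryos (log2 change -0.82 ± 0.16, SE; limma, adjusted p = 0.00396). her5, a hairy-related repressor, had 1.159 and 0.7466 CPM in TUT47MO, against 2.14 and 2.545 CPM in ConMO (-0.78 ± 0.17). grhl3, a grainyhead factor of the surface epithelium, had 0.7902 and 0.4563 CPM in TUT47MO, against 1.618 and 1.917 CPM in ConMO (-0.78 ± 0.17). For each of these 3, picked from the genes called lower, both ConMO values lay above both TUT47MO values, by little in vox.

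dusp6, a phosphatase that restrains FGF signalling, had 0.158 and 0.08296 CPM in TUT47MO embryos of rs1b and rs2, against 0.835 and 1.037 CPM in ConMO embryos. It was too low to be tested over the 3 pairs, and it passed the filter at 3 hpf through its ConMO level. irx7, an Iroquois homeobox factor, had 1.159 and 0.8711 CPM in TUT47MO, against 1.931 and 2.702 CPM in ConMO. gadd45bb, of the Gadd45 stress-sensor family, had 3.003 and 2.033 CPM in TUT47MO, against 3.914 and 5.467 CPM in ConMO. In the rs1a pair at 2 hpf these 6 genes had at most 0.5618 CPM in any library (grhl3 in ConMO), and their ConMO levels in rs1a at 4 hpf were, for example, 93.2 CPM for irx7 and 88.7 CPM for her5. klf17, an early Krüppel-like factor of the same list, had 4.214 and 3.692 CPM in TUT47MO at 3 hpf, against 4.905 and 8.704 CPM in ConMO, and was not called.

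Not all calls at 3 hpf were on those lines. npm2b, a maternal nucleoplasmin that packages chromatin, was lower: it had 73.75 and 62.1 CPM in TUT47MO embryos of rs1b and rs2, against 105.8 and 78.27 CPM in ConMO embryos (-0.42 ± 0.06, SE; limma, adjusted p = 0.000119), while the rs1a pair at 2 hpf had 78.32 CPM in TUT47MO and 76.56 CPM in ConMO. sqstm1, named above from the 3 pairs that include these 2, was also called lower (-0.36 ± 0.08). Small structured RNA entries, many of them sharing reads, gave 15 higher and 4 lower calls of 137 tested, the RNase P and RNase MRP RNAs among the higher. In both directions some of these entries had opposite signs in the 2 pairs. rplp1, of the ribosomal stalk, was the lone call among 83 ribosomal protein genes, with 53.21 and 76.28 CPM in TUT47MO, against 66.33 and 94.74 CPM in ConMO. Of the 83, 42 were lower in both 3 hpf pairs and 15 higher in both, with a median log2 change of -0.03. Among all genes 26.6% were lower and 21.9% higher in both, and among the stable genes 34% and 19.2%.

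**Figure D4:**
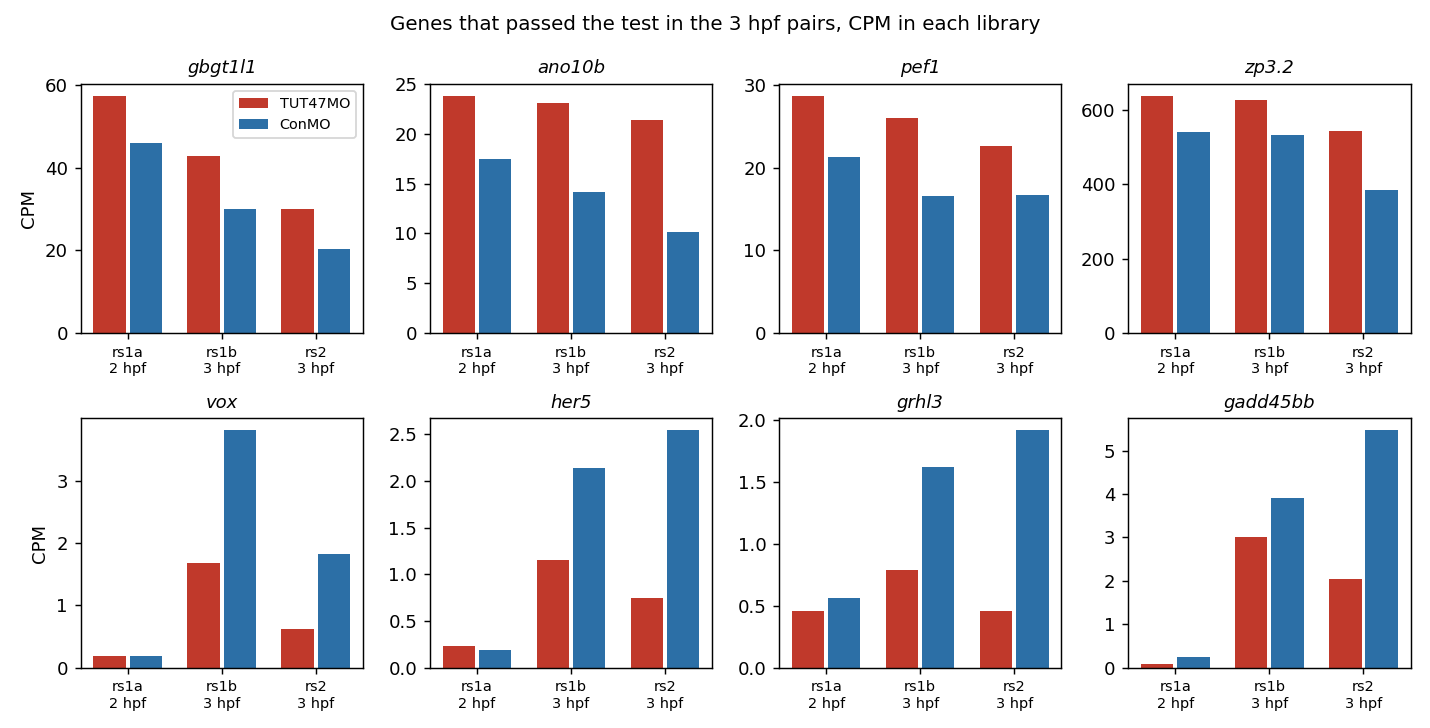
CPM of 8 genes called in the 3 hpf pairs, picked for display after their values were seen, in TUT47MO (red) and ConMO (blue) libraries of each set, on separate axes that start at 0. The upper 4 genes are higher in TUT47MO in each set, at 2 hpf too, and the lower 4 are lower in TUT47MO at 3 hpf and near 0 at 2 hpf.

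The remaining lists were read against the background of the 3-pair fit, in which 0 of their members were called. Of all genes tested, 14.4% were higher and 14.4% lower in all 3 pairs, the shares to set beside each list count below. The maternal and oocyte list had 38 of 41 genes tested, of which 16 were higher in all 3 pairs (42.1%) and 3 were lower (7.89%), with a median log2 change of 0.07. zar1l, a relative of the zygote arrest gene, had 490.5, 504.7 and 282.1 CPM in TUT47MO embryos of rs1a, rs1b and rs2, against 435.3, 397.5 and 245.3 CPM in ConMO embryos (0.24 ± 0.05 SE; limma, unadjusted p = 0.000906). btg4, an adaptor that brings the CCR4-NOT deadenylase to maternal mRNAs, had 668.1, 556.3 and 438.5 CPM in TUT47MO, against 613.3, 479.2 and 416.4 CPM in ConMO. The TUT47MO library was the higher in each pair for both. Other abundant members barely differed: h1m, the maternal linker histone, had a log2 change of 0.00 ± 0.05, ccnb1, the mitotic cyclin B1, of -0.08 ± 0.06, and buc, the organizer of germ plasm, of 0.03 ± 0.05.

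Germ plasm genes, which mark the future germ cells, had 16 of 16 tested and a median of 0.04, with 4 higher and 1 lower in all 3 pairs. ca15b, the most abundant after buc, had 704.8, 593.8 and 437.9 CPM in TUT47MO, against 601.5, 547.4 and 412.2 CPM in ConMO. ddx4, the germ cell helicase Vasa, had a log2 change of 0.00 ± 0.05, and dazl, an RNA-binding protein of germ cells, of 0.12 ± 0.05. For 14 of 20 genes reported elsewhere as targets of miR-430, a miRNA that clears maternal mRNAs, the median was -0.02.

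The maternal factors that switch on the genome had a median below 0. Of 18 listed 16 were tested, their median log2 change was -0.08, and 5 were lower and 0 higher in all 3 pairs. By pair the median was -0.20 in rs1a, -0.07 in rs1b and 0.03 in rs2, and without rs1a it was -0.02 over 17 genes. nanog had 440.5, 461.6 and 620.3 CPM in TUT47MO embryos of rs1a, rs1b and rs2, against 519.4, 505.2 and 609.9 CPM in ConMO embryos. sox19b had 498.5, 422.8 and 477.3 CPM in TUT47MO, against 556, 481.6 and 495.1 CPM in ConMO, and pou5f3 had 326.5, 276.8 and 537.3 CPM in TUT47MO, against 364.9, 292.2 and 543.6 CPM in ConMO. Of these 3 activators, sox19b and pou5f3 were lower in TUT47MO in each pair and nanog in the 2 pairs other than rs2; none was called.

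Genes of the RNA decay pathway itself had small median changes. The CCR4-NOT, PAN2-PAN3 and other deadenylases with their adaptors had 29 of 30 tested and a median of -0.03, with 9 lower and 1 higher in all 3 pairs; parn had a log2 change of 0.00 ± 0.04. Decapping and 5′-to-3′ decay factors, which act on oligouridylated mRNAs, had a median of -0.06 over 16 genes, with lsm14b at -0.05 ± 0.05 and xrn2 at -0.03 ± 0.06. The 17 exosome genes had a median of 0.01, between -0.21 and 0.46, and the 17 genes of the miRNA pathway of -0.03. Readers of oligo(U) tails had 14 of 15 tested and a median of -0.02, and included ssb, the La protein that binds 3′ uridines, at -0.12 ± 0.05, and pabpc1a, a cytoplasmic poly(A)-binding protein, at -0.16 ± 0.09. For all 29, 16, 17 and 17 genes tested in these lists the 95% confidence interval lay within 2-fold.

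The enzymes related to TUT4 and TUT7 showed no gene called among 11 tested of 13. papolg, a nuclear poly(A) polymerase, had 441.6, 295.6 and 585.7 CPM in TUT47MO embryos, against 450.6, 310.8 and 595.4 CPM in ConMO embryos. tut1, the uridylyl transferase of U6 RNA, had 66.81, 44.73 and 29.37 CPM in TUT47MO, against 56.58, 45.09 and 28.5 CPM in ConMO. fam46c, of a family of noncanonical poly(A) polymerases, had a log2 change of 0.01 ± 0.04. Regulators of mRNA stability and translation had 33 of 35 tested and a median of -0.06, with 12 lower (36.4%) and 0 higher in all 3 pairs. By pair their median was -0.104 in rs1a, -0.074 in rs1b and -0.015 in rs2. Among them syncrip, an hnRNP-like protein, had -0.11 ± 0.07. A further member of the fam46 family, fam46ba, had -0.37 ± 0.12 (limma, unadjusted p = 0.0128).

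Genes that report on injection or stress were not called over the 3 pairs. The p53 target list, read because morpholinos can activate p53, had 25 of 28 tested, a median of -0.04 and no call; mdm2 had 92.21, 89.82 and 90.39 CPM in TUT47MO embryos, against 86.05, 81.2 and 95.43 CPM in ConMO embryos, and cdkn1a stayed under 1 CPM in each library. Interferon and innate genes had 11 of 25 tested, with a median of -0.02. Heat-shock and immediate-early genes had 26 of 43 tested and a median of 0.02, with the chaperone hspa8 at -0.08 ± 0.05. sqstm1, described above with -0.39 ± 0.07, is a member of that list and was called lower at 3 hpf (limma, adjusted p = 0.0118). In ovary follicle and sperm markers, read for maternal tissue carried over, 5 of 18 could be tested, with a median of -0.06, and 13 were under 1 CPM in each library.

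Housekeeping groups set the scale of these values. The 83 ribosomal protein genes had a median log2 change of 0.00, between -0.18 and 0.19. The 53 tested histone genes had a median of -0.01, and the 49 tested cell cycle genes of -0.03, with rrm2, a subunit of ribonucleotide reductase, at 0.00 ± 0.05 and -0.11 ± 0.05 on its 2 entries. Mitochondrially encoded mRNAs had a fitted change below 0 for 13 of 13, with a median of -0.07; mt-co1 differed in sign between sets, with 4320, 4982 and 3031 CPM in TUT47MO embryos of rs1a, rs1b and rs2, against 3681, 5076 and 4032 CPM in ConMO embryos.

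**Figure D5:**
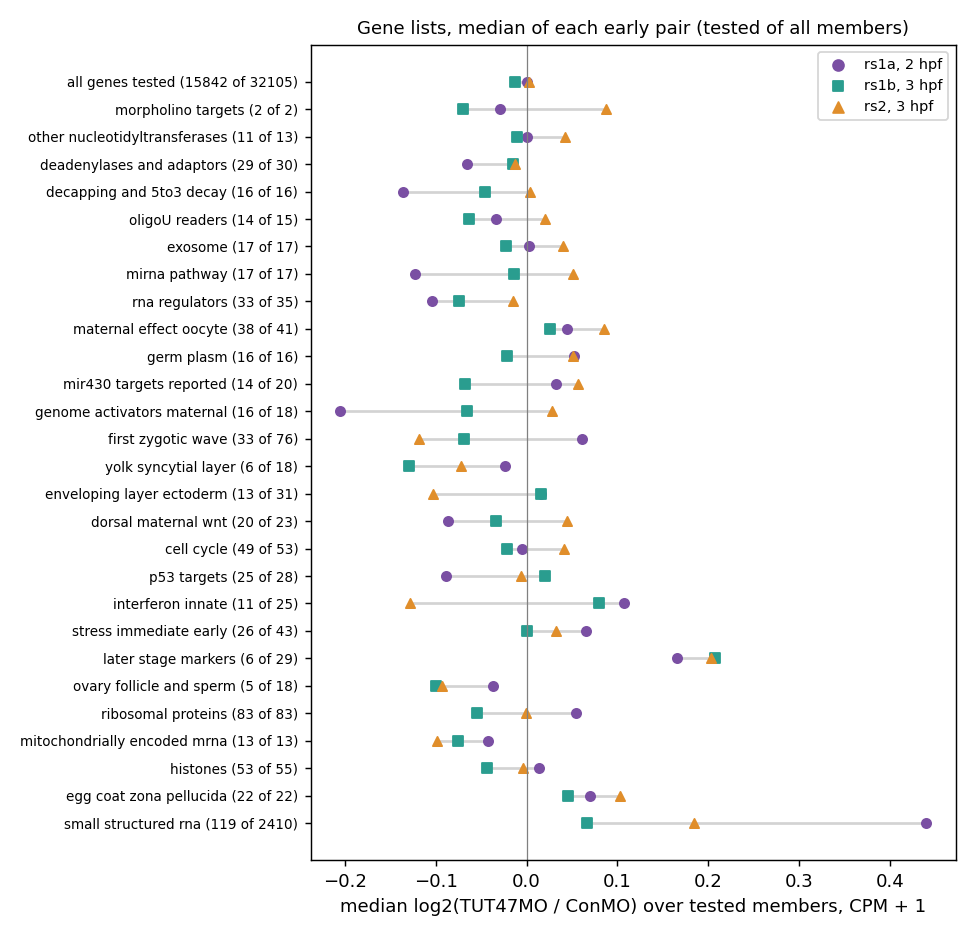
Median log2 change (TUT47MO over ConMO, CPM + 1) over the tested members of each gene list in the 3 early pairs; numbers in brackets give tested of all members, and the top row holds all genes tested. The small structured RNAs reach 0.44 in rs1a, the highest point drawn, and are lowest in rs1b at 0.07.

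Lists of tissues that form later were thinly measured. Of 18 genes of the yolk syncytial layer 6 were tested, with a median of -0.12, and of 31 of the enveloping layer and ectoderm 13, with a median of 0.04. epcam, an adhesion protein of epithelia, had 1281, 1256 and 266.7 CPM in TUT47MO embryos of rs1a, rs1b and rs2, against 977.4, 1257 and 257.1 CPM in ConMO embryos, and so differed mainly in rs1a. The 20 tested of 23 genes of the maternal Wnt and dorsal pathway had a median of -0.02, with ctnnb1, the transducer β-catenin, at -0.02 ± 0.07. The 6 tested markers of later organs had a median of 0.16, at a few CPM.

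The larger classes of genes that define the later phenotype had median differences from stable genes near 0 at these hours. For the zygotic class this says little, since its genes were chosen to be low early. For each set, genes cleared by 5 to 6 hpf were taken from the ConMO libraries of the other 2 sets (3237 to 3649 genes), so that they share no library with the pair measured. Their median minus that of stable genes was 0.03 in rs1a, 0.04 in rs1b and 0.01 in rs2 (0.03 ± 0.02, SD, n = 3; two-sided exact sign-flip permutation test over pairs, p = 0.25, the smallest it can give). At 5 to 6 hpf the same difference was 1.21, 1.21 and 1.07. Zygotic genes minus stable genes gave -0.02, 0.02 and 0.02 at 2 to 3 hpf (exact sign-flip permutation test, p = 1), beside -2.31, -2.48 and -1.08 at 5 to 6 hpf. The early median levels of the zygotic genes were 0.109, 0.0841 and 0.0648 CPM in TUT47MO of rs1a, rs1b and rs2. In ConMO they were 0.0975, 0.121 and 0.0981 CPM. At such levels the added 1 CPM holds the log2 change near 0, so an early difference in these genes cannot be judged from it.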

How the data were processed

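RNA-seq of whole zebrafish embryos was analysed from a table of 32660 entries, of which 555 (1.7%) carry no name and stayed out. Total RNA was depleted of rRNA and sequenced as stranded paired ends, per the labels' protocols; STAR 2.5.3a, RSEM and GRCz10 are listed in the submitters' processing notes. The values of rs1b are estimated counts, as deposited by the authors; in the notes RSEM is the tool that makes such estimates. For rs1a and rs2 the authors deposited a signal, namely such counts times a constant of each library; no source used here says where the constants come from. Low values step in units of that constant, and dividing by it made 84.13 to 90.66% of those at 20 reads or below whole numbers (tolerance 0.02). ERCC spike-in values were not used here, so no level is an amount per embryo.

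Reads were scaled by TMM (edgeR 4.0.16), kept by filterByExpr (minimum count 10) and tested with limma 3.58.1 (trend, set as block, 2 residual degrees of freedom) in R 4.3.3. DESeq2 1.42.0 and edgeR ran on rounded reads. The sets pair the libraries per the series text and the hours; deviations from group means correlated within pairs (0.796, 0.864 and 0.929). The steps were tested on simulated data. Same-group libraries differed beyond sampling noise.

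The comparison, members and lists were chosen with earlier results of these data known; some list members were dropped and 2 lists (egg coat, small structured RNA) added after the values were seen. Of 558 symbols asked, 543 matched. Genes were named by rule: the 2 targets; in each direction genes called with at least 5 CPM, or, with fewer than 5 such, the 5 with the smallest p and 1 sign in 3 pairs; the 2 most abundant and the called members of each list. Others were chosen after their values were seen.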

Additional observations from a re-analysis of the deposited data

Results flagged for a closer look

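For 32 of the 62 genes named by rule the effect at 5 to 6 hpf differed from that at 2 to 3 hpf by a test of the difference itself (limma on 12 libraries, 6 pairs as a block, adjusted p under 0.05). This is a share similar to the 49.6% of all 18075 genes tested, so the named genes do not stand out by it. Values are late minus early log2 changes of TUT47MO over ConMO, and the early change of each lay between -0.41 and 0.45.

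The difference was positive for 19 genes. It was 2.41 for buc, 2.33 for mtus1a, 2.14 for fam46c, 2.04 for lsm14b and 2.04 for btg4. It was 1.64 for ca15b, 1.51 for h1m, 1.49 for eomesa, 1.39 for the egg coat entry si:ch211-14a17.7, 1.30 for dgcr8, 1.25 for klhl13, 1.16 for neurog1 and 1.004 for parn. Smaller values stood at nanog (0.95), gbgt1l1 (0.83), spata4 (0.74), stat1a (0.70), zp3.2 (0.61) and btg2 (0.61).

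The difference was negative for 13 genes. It was -2.42 for surf2, -1.62 for ctnnb1, -1.48 for rbbp4, -1.43 for rpsa, -1.38 for ctcf, -1.35 for hnrnpub and -1.22 for pabpc1a. Further values were -1.15 for hsp90ab1, -1.10 for hspa8, -1.09 for ssb, -1.08 for syncrip, -1.005 for tnrc6a and -0.70 for rpl12.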

How the results depend on the processing

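The genes called over the 3 pairs depended on the setting. The 1 higher call became 0 with no filter, with a minimum mean of 5 CPM and with 12 libraries. It also became 0 with scaling without mitochondrially encoded genes and entries named like the clone pair. Under the deposited scaling, which moves the median of all genes by 0.21, 2 were called higher. These were different entries, naa40 and a signal recognition particle RNA. DESeq2 called 12 higher and 1 lower. Leaving out each set gave 0 (without rs1b) to 76 (without rs1a) higher and 0 to 36 lower. It gave 0 to 12 members of the lists other than egg coat and small structured RNA, and DESeq2 called 1 member of those other lists. The 1 member that DESeq2 called was zp3b, an egg coat gene that also stands in the maternal and oocyte list. Entries found only in the egg coat or small structured RNA lists were not in these counts. DESeq2 called some of them, such as zp3.2 and the RNase MRP RNA. With the replicate block left out, so that the pairing by set is ignored, 0 genes were called higher. Genes whose late and early effects differ were 2808 higher and 2522 lower under the deposited scaling, and 1511 (without rs1a) to 5711 (without rs2) higher and 1474 to 5541 lower when sets were left out.

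Zygotic minus stable was -0.22 under the deposited scaling. For genes on by 4 hpf, minus stable, it was -0.39 there and -0.26 with 0.1 CPM added. With maternal genes from 20 CPM, 86 of 103 cleared genes were higher in both 3 hpf pairs. No called value changed sign, but both uncalled differences from stable genes that lie near 0 did: zygotic minus stable was 0.005, and -0.003 without rs1b and -0.001 without rs2; on by 4 hpf minus stable was -0.03, and 0.005 with 5 CPM added and 0.001 without rs2. The causes were not tested. The fits have 2 residual degrees of freedom, or 1 without a set, and the added 1 CPM compresses genes near 1 CPM.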
